A study of Mus musculus with 4 samples.

Results

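The 125 genes described here encode developmental transcription factors of 12 families, Emx, Otx, Lhx, Pax, Dlx, Nkx, Irx, Gata, Tbx, Sox, Fox and the family of Six2, and leave out the Hox clusters. They were chosen by name alone: a region of the deposited table was a member where the gene it names is a family name followed by a number, or, for Fox, by a letter and a number. This gave 3094 of 849172 regions and 125 of 25182 gene names, and 3092 member regions had a value in all 4 libraries. DNA methylation had been measured by whole-genome bisulfite sequencing in CA1 hippocampal tissue of C57B6/J mice aged 117 days. The 2 libraries labelled Tet2+f_Camk2aCre are called the Cre libraries below. The 2 labelled Tet2+f, with no Cre in the label, are the control libraries. Both groups share Tet2+f, and no group carries Cre without it, so Tet2 dose and the Cre transgene cannot be told apart. Camk2a in the label is read as the promoter that drives Cre in excitatory neurons of the forebrain. A tissue level averages over all cell types, so a different mix of cells and a different level per cell cannot be told apart. Whether each library came from its own mouse is not in the labels, so p-values reflect only how far these libraries differ, possibly for technical reasons. Bisulfite conversion leaves 5-methylcytosine and 5-hydroxymethylcytosine, the first product of TET enzymes, unseparated. The table holds percentages and no read counts, so depth is unknown and no interval is given for a single level. In every comparison the values of replicates 1 and 2 are given in that order, first for the control and then for the Cre group.

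Factors of these families bind DNA through a homeodomain (Emx, Otx, Lhx, Dlx, Nkx, Irx and the Six2 family), a paired domain (Pax), zinc fingers (Gata), a T-box, an HMG box (Sox) or a forkhead domain (Fox), and they set regional and cell identity in the embryo. Their genes typically lie in CpG-rich stretches that stay free of methylation and are bound by Polycomb complexes in tissues where the gene is silent. An unmethylated start is therefore a usual state of these genes whether or not they are transcribed, and a methylation level is not an expression level. The rule found 2 Emx, 2 Otx, 8 Lhx, 9 Pax, 4 Dlx, 13 Nkx, 6 Irx, 6 Gata, 13 Tbx, 17 Sox and 39 Fox genes, and 6 of the Six2 family. A further 10 genes with names of this form in RefSeq have no region under their own name, because the regions over them name another feature: Dlx1, Dlx6, Sox1, Sox2, Foxc2, Foxe1, Foxf1, Foxl1, Foxp3 and Nkx1-2. Those over Sox2, for example, name the overlapping transcript Sox2ot. Of the 125 gene starts, 90 lay in a region named for the gene itself, 13 in one named for another feature, 18 in one that names no gene and 4 in a gap between regions.

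The CpG content just upstream of the start varied widely among the members, and 4 windows are shown because they span the range of CpG count and methylation. Each is the 250 bases upstream of the start, from RefSeq promoter sequences of GRCm38.p6, read 5′ to 3′ on the strand of the gene, with every CpG in capitals. Nkx6-1, a homeodomain factor of the ventral spinal cord and of pancreatic beta cells, had 30 CpGs in this window, and the region nearest its start was methylated at 1.42%. Lhx8, a LIM-homeodomain factor of the ventral forebrain, had 4 CpGs and a start at 7.77%. Foxr1, a forkhead gene, had 15 CpGs and a start at 84.3%. Tbx22, a T-box gene of palate development, had 1 CpG and a start at 77.3%. The windows lie at chr5:101664712-101664961 on the minus strand, chr3:154330561-154330810 on the minus strand, chr9:44440869-44441118 on the minus strand and chrX:107667714-107667963 on the plus strand, in that order.
Nkx6-1: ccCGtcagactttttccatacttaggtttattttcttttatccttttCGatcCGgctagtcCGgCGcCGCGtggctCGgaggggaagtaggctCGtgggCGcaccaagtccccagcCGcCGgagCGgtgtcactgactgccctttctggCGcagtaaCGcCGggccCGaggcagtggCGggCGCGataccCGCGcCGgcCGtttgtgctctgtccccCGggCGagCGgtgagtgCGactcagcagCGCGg
Lhx8: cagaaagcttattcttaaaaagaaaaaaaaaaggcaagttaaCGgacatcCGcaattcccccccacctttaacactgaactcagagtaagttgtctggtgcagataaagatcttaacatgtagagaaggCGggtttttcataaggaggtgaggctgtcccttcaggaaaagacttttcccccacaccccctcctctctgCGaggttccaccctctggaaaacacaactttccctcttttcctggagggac
Foxr1: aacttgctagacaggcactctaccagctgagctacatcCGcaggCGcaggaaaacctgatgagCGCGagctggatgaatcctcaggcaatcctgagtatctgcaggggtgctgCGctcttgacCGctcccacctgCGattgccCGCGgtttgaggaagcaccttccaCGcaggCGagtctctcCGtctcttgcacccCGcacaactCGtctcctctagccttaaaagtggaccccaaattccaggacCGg
Tbx22: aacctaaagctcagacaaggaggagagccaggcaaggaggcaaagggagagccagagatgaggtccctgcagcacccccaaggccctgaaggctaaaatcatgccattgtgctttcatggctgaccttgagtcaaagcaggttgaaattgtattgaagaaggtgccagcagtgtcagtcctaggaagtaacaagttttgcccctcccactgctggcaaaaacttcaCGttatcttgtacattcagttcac
By the CpG count of the window, Nkx6-1 and Tbx22 follow the usual relation of dense CpG with low methylation and sparse CpG with high methylation. Lhx8 and Foxr1 are the exceptions. The level is that of the region at or nearest the start, which can extend beyond the window. Regions short enough to be counted held about 25 CpGs. If the start regions of Lhx8 and Tbx22 hold as many, most of their CpGs lie outside the sequence shown. The 4 genes were chosen after their values were seen.

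Of the 125 members, 59 had a RefSeq window at the start used here, among 11017 genes with one. Their upstream windows held a median of 17 CpGs against 9 over all genes. Of the 36 members with 15 CpGs or more, 33 had a start under 10% methylation (91.7%), and over all genes in that class the share was 94.9%. The members in this class whose start was over 50% were Foxr1, shown above, and Pax5, the B cell factor, whose start was at 50.3%. In the class of 5 to 14 CpGs, 10 of 18 members were under 10%, or 55.6% against 49.5% of all genes. Foxi1, Foxi2, Lhx8, Tbx10 and Tbx22 had fewer than 5 CpGs, and of these Lhx8 alone had a start under 10%, where 2.11% of all genes in that class did. These classes were set after the values were seen, and the differences from all genes are described without a test.

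Member genes were less methylated than most genes of the table. A gene level is the plain mean over all regions that name the gene. Its median was 26.6% over the 125 members and 73.9% over all 25470 genes. Of the members, 41 (32.8%) had a gene level under 10%, against 2.26% of all genes. At the level of single regions the members averaged 53.7% and 53.9% (control) against 54.0% and 53.7% (Cre), and all regions averaged 75.7% and 76.1%, then 75.95% and 75.8%. Under 10% were 842 member regions (27.2%), against 5.71% of all regions and 9.32% of those that name a gene. Over 80% were 1257 member regions (40.7%, against 63.2% of all). The 1933 regions that lay wholly inside a RefSeq start window, all of them short, had a median of 25 CpGs. CpGs were not counted in longer regions. If longer regions hold a similar number, the length of a region falls as CpG density rises. Member regions under 10% had a median length of 316 bp while those over 80% had 2266 bp.

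**Figure D1:**
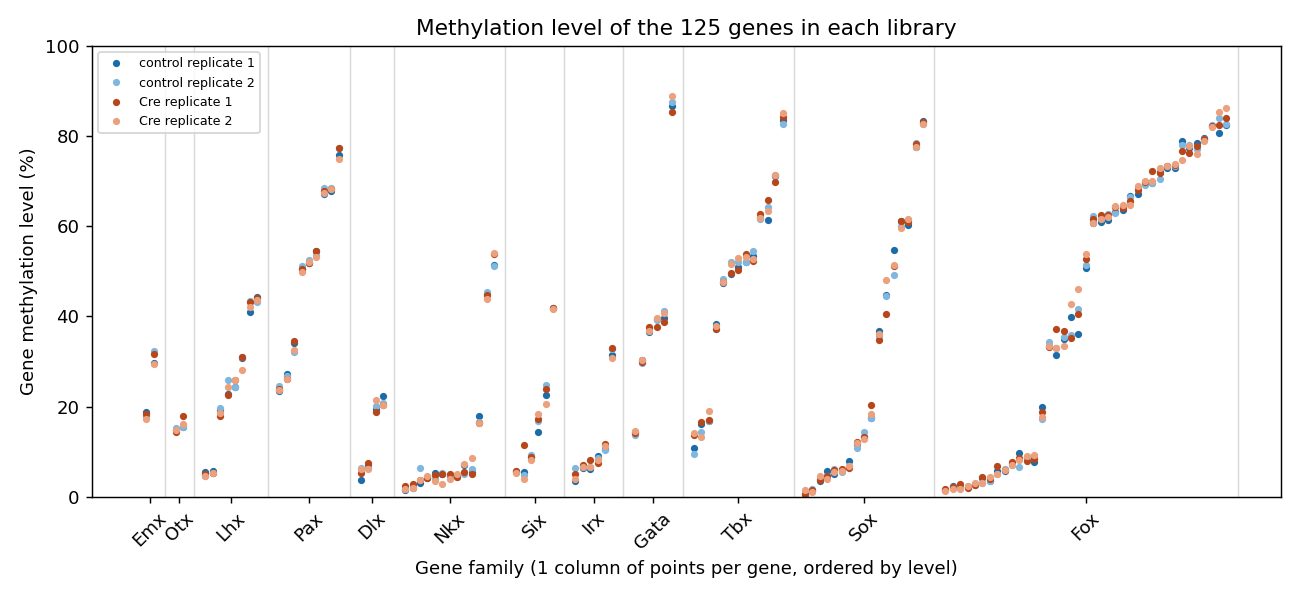
Gene methylation level (%, mean of the regions naming the gene) of each of the 125 members in each of the 4 libraries, by family and ordered by level within it. The points of 1 gene lie close together, while the genes of a family spread widely: Nkx genes sit mostly below 10%, and Fox genes run from 1.52% to 83.8%.

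The families differed in the share of their regions that was under 10%. Such regions were typically shorter than the others, so these are not shares of sequence, which were not computed. Nkx had the largest share of regions under 10% (79.2%), followed by Irx (73.5%), the Six2 family (64.4%), Dlx (63.9%), and Otx (60.7%), and then Emx, with 13 of 26 regions. Lhx (48.5%) and Gata (45.8%) lay between, and Tbx (29.5%), Pax (23.0%), Fox (17.7%) and Sox (13.7%) were lowest. Levels also differed by gene length. The 69 members shorter than 10 kb had a median gene level of 8.28%, and 39 of them were under 10%. The 36 members of 10 to 50 kb had a median of 39.6%, and 2 were under 10%. The 20 members over 50 kb had a median of 63.1% and none was under 10%, the lowest being Gata4 at 37.1%. Over all genes under 10 kb the median was 71.9%, and 5.23% were under 10%.

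Among the homeodomain families, the Nkx genes were the least methylated. Their median gene level was 4.58%, from 1.79% for Nkx1-1 to 52.7% for Nkx6-3, a gene of the stomach epithelium. Nkx2-1, the factor of the medial ganglionic eminence, thyroid and lung, was at 2.21%, and Nkx2-5, a cardiac factor, at 4.54%. The Irx median was 7.59%, from 4.69% for Irx5 to 32.0% for Irx6. The Six2 family had a median of 12.7%, and its most methylated gene was Six4 at 41.8%. Dlx genes, which direct the ventral forebrain and the interneurons born there, ran from 5.41% for Dlx2 to 20.9% for Dlx3. Otx1 and Otx2, head and forebrain genes, were at 14.8% and 16.2%. Emx2 and Emx1, which pattern the dorsal forebrain including the hippocampus, were at 18.1% and 30.8%. Lhx genes ran from 4.98% for Lhx1 to 43.8% for Lhx8. Within each of these families the least and the most methylated gene were thus well apart, except in Otx.

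The other families spread more widely. Sox gene levels ran from 0.797% for Sox3, a neural progenitor gene, to 83.0% for Sox5, a gene of more than 50 kb. Sox11 and Sox4, which act in neuronal differentiation, were at 1.39% and 3.96%, and Sox9, a glial and cartilage factor, was at 11.6%. Fox genes had a median of 52.2%, from 1.52% for the ovarian factor Foxl2 to 83.8% for Foxi1, a factor of the inner ear and kidney. Foxp1 and Foxp2, active in adult forebrain neurons, were at 79.2% and 82.3%. The Gata median was 38.1%, and the family ran from 14.2% for Gata2 to 87.1% for Gata1, both haematopoietic factors. Pax genes ran from 23.9% for Pax9 to 76.4% for Pax4, a factor of the endocrine pancreas, and Pax6, which acts in cortical progenitors and the eye, was at 33.3%. Tbx genes ran from 12.01% for Tbx3, a factor of limb, heart and mammary gland, to 83.9% for Tbx19, a factor of pituitary corticotrophs.

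Low methylation reached far beyond the start of many members. In the first 1 kb downstream of the start, member regions averaged 4.22% and regions at all gene starts 11.5%. At 2 to 3 kb downstream the means were 21.2% and 58.2%, and at 5 to 6 kb they were 30.7% and 71.8%. Upstream the pattern was similar, with 28.4% against 57.2% at 1 to 2 kb and 45.8% against 71.6% at 5 to 6 kb. The start here is the outer end of the RefSeq gene span on the strand that the table gives.

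**Figure D2:**
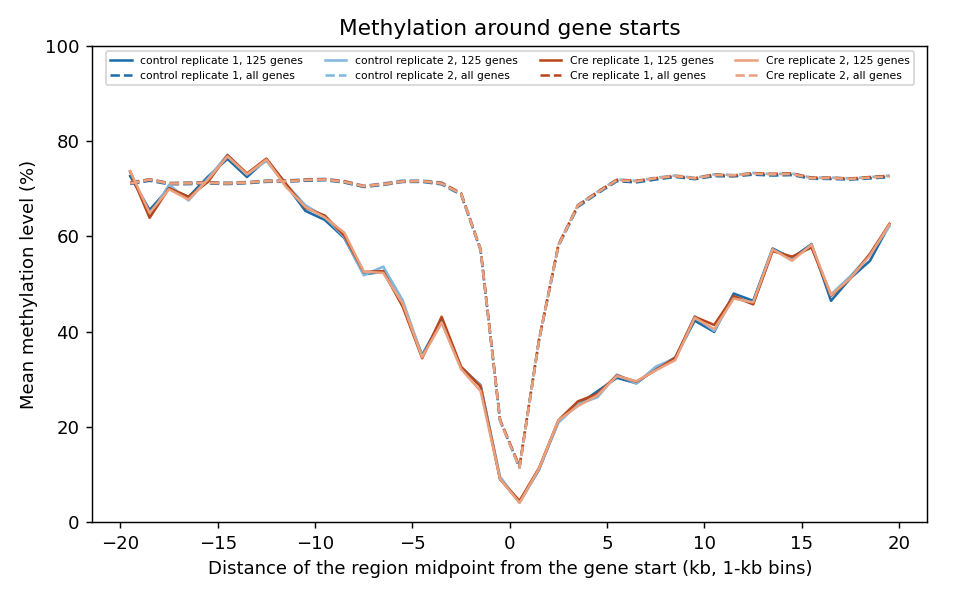
Mean methylation level (%) of regions by distance of their midpoint from the gene start (kb, bins of 1 kb), for the 125 members (solid) and all genes (dashed) in each of the 4 libraries. The 4 solid lines overlie one another and lie below the dashed lines from about 10 kb upstream to 20 kb downstream, with a minimum of 4.22% just after the start.

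Of the 125 starts, 89 (71.2%) lay in or next to a region under 10%, against 43.4% of 21859 gene starts. From each such start the stretch of neighbouring regions all under 10%, with gaps of at most 1000 bp, was measured. Its median length was 2528 bp over the members (quartiles 1717 and 4211 bp) and 1192 bp over all genes (quartiles 781 and 1742 bp). A stretch of 5000 bp or more was found at 21 of the 89 members (23.6%) and at 1.56% of all genes with a low start. The longest were at Foxb1, a gene of the developing diencephalon (14055 bp), at Nkx2-1 (12655 bp) and at Gata3, the T cell and inner ear factor (11384 bp). Foxa1, an endodermal factor, had 9427 bp, Pax3, a neural crest and muscle gene, 9204 bp, Lhx5 8784 bp, Nkx6-1 8276 bp and Lhx1 8168 bp. Foxb1, Nkx2-1 and Gata3 were the 3 members (3.37%) over 10000 bp, a length reached at 0.264% of all low starts. These lengths use the mean of the 4 libraries, take no account of group and were not tested against the other genes.

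**Figure D3:**
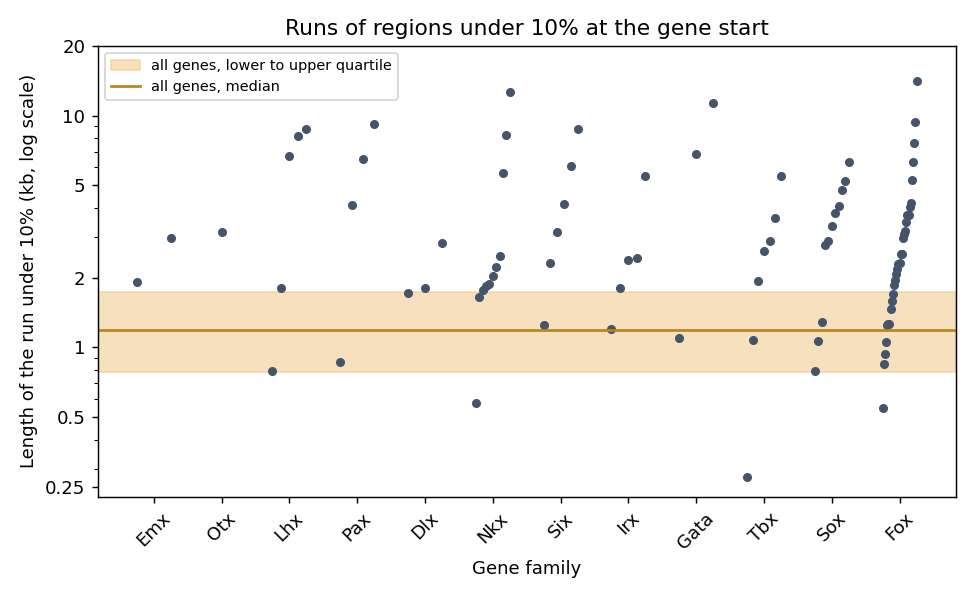
Length (kb, log axis) of the stretch of neighbouring regions under 10% methylation at the start of each of the 89 members with a low start, by family. The line and band give the median (1.19 kb) and quartiles over all genes, and most members lie above the band, the longest being Foxb1, Nkx2-1 and Gata3.

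A smaller set of members had methylated starts. The region at the start was at 91.2% for Foxn1, the thymus epithelial factor, 89.9% for Foxi1, 87.3% for Foxr2, 86.8% for Nkx6-3, 84.3% for Gata1, 84.3% for Foxr1, 78.8% for Tbx10 and 77.3% for Tbx22. Sox30, a male germ cell gene, was at 74.1%, Tbx19 at 73.1%, Lhx4 at 70.1%, Pax8, a thyroid and kidney gene, at 69.1%, Foxs1 at 67.0%, Sox15 at 63.8%, Lhx3 at 60.1%, Pax4 at 59.8% and Dlx4 at 57.3%. A gene can have further starts inside its span. Lhx3 was methylated at its outer start, and 7 of its 13 regions were under 10%. Irx4, with 39.96% at the outer start, had 10 of 14 regions under 10%.

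Neighbouring members could differ. On chromosome 12 Nkx2-1, Nkx2-9 and Pax9 follow each other at gaps of 74.5 and 78.1 kb, and were at 2.21%, 6.29% and 23.9%. No members shared a promoter region, so none of these levels was counted for more than 1 gene.

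The comparison of the groups asks whether reduced Tet2, an enzyme that oxidises 5-methylcytosine, went with a different methylation level at these genes. The control mean over member regions was 53.8% ± 0.135 (SD, n = 2), and the Cre mean was 53.9% ± 0.220 (SD, n = 2). The difference of 0.0509 points (percentage points) is smaller than the spread between replicates. The median region differed by 0 points. Over all regions the difference of means was -0.00683 points. By family, the region means differed from -0.423 points in Emx to 0.540 points in Tbx, and the Tbx libraries were at 46.1% and 46.4% against 46.7% and 46.9%. Within 1 kb downstream of the start the member regions were at 4.21% and 4.11% (control) against 4.51% and 4.07% (Cre). Replicate 1 of the Cre group stood highest there, as it did over all regions under 10% of the table, at 1.81% against 1.60% to 1.64% in the others. Its part in the differences of single genes was not tested, except where a value without it is given.

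At the level of genes, 0 of 125 members passed limma with Benjamini-Hochberg adjustment at 0.05 over all 25470 genes, and 0% of all genes did. The smallest adjusted p among the members was 0.821, for Tbx3. The members were split evenly, with 62 higher in the Cre group and 63 lower, and the median member differed by -0.0191 points against 0.0245 points over all genes. The median absolute difference was 0.456 points, and the median gap between 2 libraries of 1 group was 0.716 points in the control and 0.812 points in the Cre libraries. An unadjusted p under 0.05 was found at 3 members (2.40%), Tbx3, Nkx6-3 and Foxa1, all higher. The background was 2.62% of all genes higher and 2.63% lower. That count was not stable: it was 9 of 124 (7.26%, against 5.15% of all such genes) among genes with 3 or more regions. It was also higher without either Cre library, but such a fit leaves 1 library in that group, so those counts are not given. The Cre pair lay wholly above the control pair at 21 members (16.8%, background 17.1%) and wholly below at 13 (10.4%, background 16%). With a mean difference of at least 10 points as well, 0 members lay above (background 0.212%) and 0 below (background 0.2%). On simulated levels 200 genes were raised, all from a narrow band in the lower part of the range between 10 and 80%. The gene test recovered 0% of their changes of 10 points and 78% of those of 20 points. The differences seen here are smaller than those it recovered. Recovery at other levels was not simulated, as at the 41 members under 10% or at the more methylated Nkx6-3, Foxo4, Foxs1 and Foxi1. A p that misses the threshold does not show that the levels were alike.

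**Figure D4:**
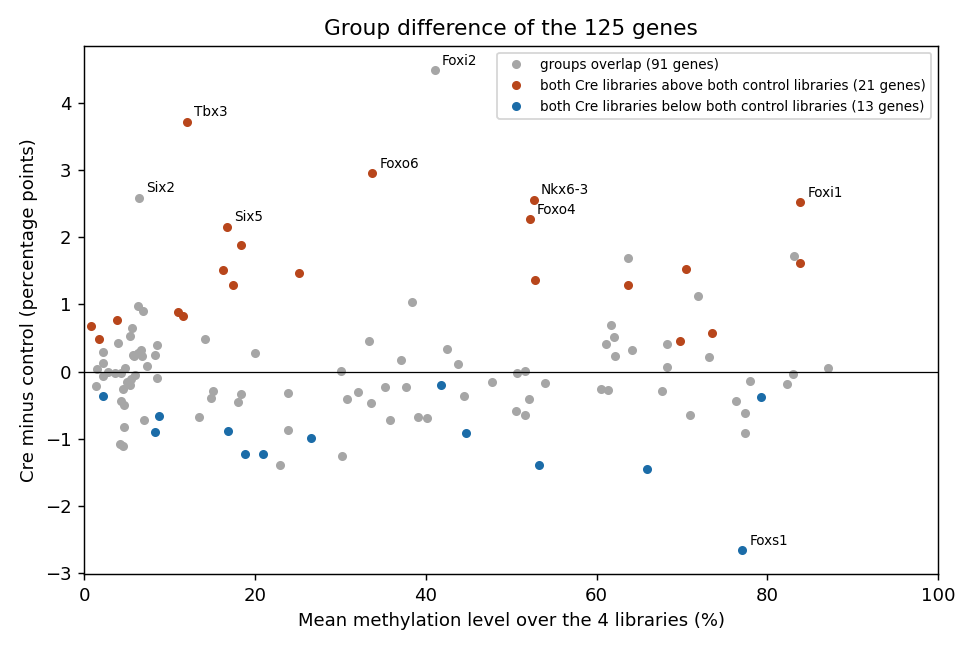
Difference of the gene level (Cre minus control, percentage points) against the mean level over the 4 libraries (%), for the 125 members, coloured by whether the libraries of the groups overlap. Most genes lie within 1 point of 0, and the largest differences are Foxi2 (4.49), where the groups overlap, and Tbx3 (3.72); none passed the adjusted test.

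Tbx3, on chromosome 5 from 119670534 to 119684724, had the largest gene difference among members whose groups did not overlap. It was at 10.7% and 9.57% (control) against 13.6% and 14.1% (Cre), a difference of 3.72 points (limma unadjusted p = 0.00547, adjusted p = 0.821). Both Cre libraries were higher, and the difference was 3.14 to 4.29 points with any 1 library left out. The largest contributions came from a pair of adjoining regions inside the gene span, about 10 kb from the start. The region from 119680468 to 119680673 was at 1.17% and 5.33% (control) against 34.8% and 20.7% (Cre). Adjoining it, 119680676 to 119680949 read 4.57% and 1.79% (control), then 13.6% and 19.5% (Cre). Without the first of them the gene difference was 1.98 points. The second, which differed by 13.4 points, is still part of that value, and the difference without both was not computed. Other regions of Tbx3 went both ways: 119673518 to 119674589 was lower, with control levels of 17.4% and 12.9% against 8.53% and 9.38%, and the one that follows it, from 119674721 to 119675662, at 9.88% and 8.65% against 12.7% and 19.4%. Tbx5, the neighbouring heart and forelimb gene 112 kb away, was at 52.1% and 52.2% against 53.9% and 53.1%. The region at the Tbx3 start names another feature and is not part of the gene level.

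Among the other large gene differences, those of Six2 and Foxo4 came mainly from 1 region. The difference of Foxo6 was 2.05 points and that of Foxi2 3.63 points without the most different region of each. Six2, which maintains nephron progenitors, was at 5.46% and 4.81% (control) against 11.4% and 3.999% (Cre). The high value came from replicate 1 of the Cre group alone, and in it from a region of 144 bp just inside the gene start (chromosome 17, 85688000 to 85688143) that was at 53.3% there and at 0% in each other library. Without that region the Six2 difference of 2.58 points was 0.175 points, and without that library it was -1.13 points. Foxo6, a forkhead gene of hippocampal neurons, was at 31.5% and 33.0% against 37.3% and 33.1%, so replicate 1 of the Cre group again stood highest, and the difference of 2.95 points was 0.844 points without it. Foxi2 was at 36.0% and 41.6% against 40.5% and 46.0%, with overlapping groups and a difference of 4.49 points, which ran from 1.72 to 7.25 points with 1 library left out. Foxo4, an X-linked forkhead gene, was at 50.7% and 51.3% against 52.7% and 53.9%. Its difference of 2.26 points was 0.390 points without the last region of the gene.

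**Figure D5:**
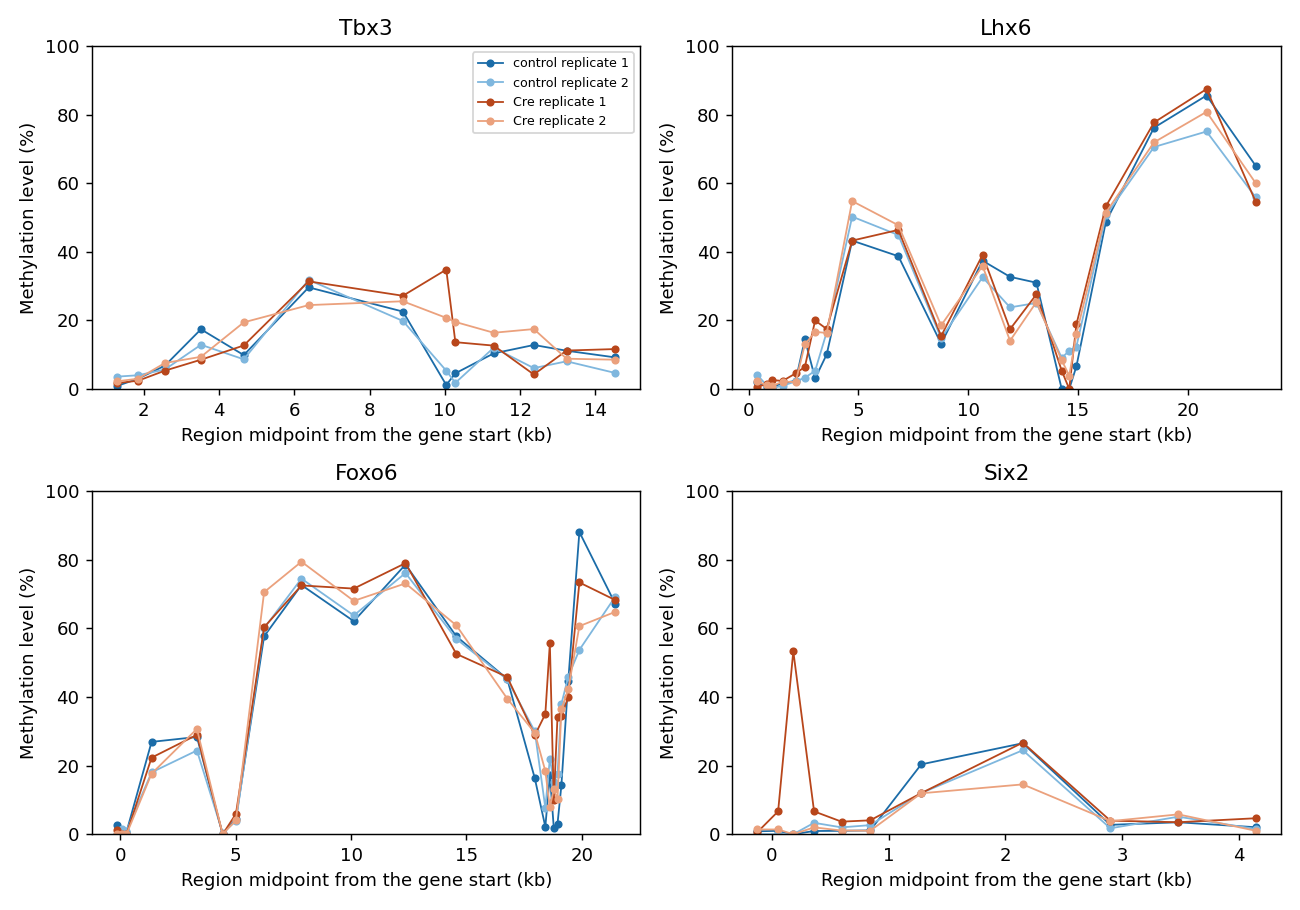
Methylation level (%) of each region naming Tbx3, Lhx6, Foxo6 or Six2, by distance of its midpoint from the gene start (kb), in the 4 libraries. At Tbx3 both Cre libraries are high near 10 kb, while at Six2 a single region just inside the start is at 53.3% in replicate 1 of the Cre group alone.

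Among the members with the largest differences, Nkx6-3 and Foxi1, which were higher in the Cre libraries, have methylated starts. So do Foxs1, Tbx22 and Lhx3, which were lower. Nkx6-3, on chromosome 8 from 23153271 to 23158948, was at 51.5% and 51.2% (control) against 53.8% and 54.1% (Cre) (2.56 points, limma adjusted p = 0.933). Foxi1 was at 82.4% and 82.7% against 84.0% and 86.2%. Without its most different region the Nkx6-3 difference was 1.35 points and that of Foxi1 0.544 points. Foxa1 differed by 0.765 points, from 3.40% in both control libraries to 3.85% and 4.48%. Downward differences reached at most 2.66 points in size. Foxs1 was at 78.9% and 77.9% against 76.8% and 74.7% (-2.66 points, limma adjusted p = 0.951). Foxa3, a liver factor, differed by -1.45 points, Tbx22 by -1.39, Lhx3, a pituitary and motor neuron gene, by -1.22, Dlx3, a gene of skin and placenta, by -1.22 and Pax1, a gene of the vertebral column and thymus, by -0.982. In each of these 6 genes both Cre libraries lay below both control libraries.

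At promoters, taken as all regions that overlap 2000 bases upstream to 500 bases downstream of the start, 0 of 125 members passed the adjusted limma test, as did 0% of all 21859 promoters, and the smallest adjusted p among the members was 0.956. Member promoters had a median level of 13.4% against 37.8% over all promoters, and 48 (38.4%) were under 10%, against 6.60%. In the Cre group 55 were higher and 70 lower, and the median member differed by -0.142 points against 0.0272 points over all promoters. An unadjusted p under 0.05 was found at 17 members (13.6%): 6 higher, where the background was 2.46%, and 11 lower, where it was 2.68%. The count depended on the scale. It was 8 (6.40%, against 5.17% of all promoters), 4 higher and 4 lower, when percentages were tested in place of logit levels. The shares were then 3.20% higher and 3.20% lower, against 2.47% and 2.70% of all promoters. Logit levels stretch small differences near 0% and 100%, and the part of this in the count was not tested. In the other settings with all 4 libraries the share was 10.4% to 13.6%, against 4.65% to 5.39% of all promoters. The share was lower without replicate 1 of the Cre group, a fit that leaves 1 library in that group, so that count is not given. The groups were apart at 45 promoters, the Cre pair lying above at 19 (15.2%, background 16.9%) and below at 26 (20.8%, background 16.8%). None of the 125 differed by 10 points or more, a size reached without overlap by 0.0915% of all promoters above and 0.0778% below.

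Of the 17 promoters, 9 had a mean level under 10%, and their differences were small in points. Nkx3-2, a gene of the axial skeleton, was at 4.21% and 4.47% (control) against 3.05% and 3.08% (Cre). Pax3 was at 4.58% and 4.81% against 3.38% and 3.66%. Six6, an eye and pituitary gene, was at 5.35% and 4.20% against 2.72% and 3.13%. Foxl2, Foxa2 and Tbx2 were also lower in both Cre libraries, by 0.883 to 1.68 points. Nkx2-1 and Pax9 were higher, by 1.004 and 1.27 points, and Nkx2-1 was at 2.68% and 2.95% against 3.97% and 3.67%. A further 5 promoters had a mean over 80%, of the 8 members in that class. Over all promoters the shares with an unadjusted p under 0.05 were 6.10% under 10%, 3.42% from 10 to 80% and 10.9% over 80%. The corresponding member shares were 18.8%, 4.35% and 62.5%, the last of 8 genes. These classes were looked at after the values were seen, and no test of the count was made.

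Among promoters whose groups did not overlap, the 5 largest differences in each direction were as follows. Nkx6-3 was at 81.0% and 80.5% (control) against 88.9% and 87.8% (Cre), a difference of 7.59 points. The difference is larger than the spread between replicates, and limma gave an adjusted p of 0.956. Sox30 was at 74.9% and 68.0% against 78.5% and 75.1%. Tbx19 was at 80.8% and 76.1% against 83.4% and 83.5%. Foxi1 was at 79.0% and 79.3% against 83.5% and 84.5%, and Gata1 at 86.7% and 84.9% against 89.1% and 90.3%. In the other direction, Foxn1 was at 90.3% and 86.2% against 80.6% and 82.6%, a difference of -6.59 points. The Pax6 promoter was at 33.3% and 32.4% against 27.2% and 28.8% (-4.88 points). Sox10, a factor of oligodendrocytes and neural crest, was at 43.4% and 45.1% against 39.6% and 40.3% (-4.31 points). Dlx3 was at 23.3% and 21.6% against 19.4% and 19.2%, and Nkx6-2, an oligodendrocyte gene, at 12.7% and 13.3% against 12.01% and 8.71%. As these 10 were chosen for groups that do not overlap, leaving out any 1 library cannot turn their sign. The range of the difference was then widest for Sox30, from 1.90 to 8.83 points.

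Among single regions, 0 of 3092 members passed the adjusted limma test, as did 0% of all 849014 regions. The unadjusted p was under 0.05 at 95 member regions higher (3.07%, background 2.25%) and 94 lower (3.04%, background 2.35%), out of 39068 such regions in the table. On the percent scale the members' shares were 2.39% higher and 1.88% lower, below the 2.45% and 2.51% of all regions. The Cre pair lay above the control pair at 461 member regions (14.9%, background 15.9%) and below it at 494 (15.98%, background 16.8%). With a mean difference of at least 10 points as well, 18 lay above (0.582%, background 0.408%) and 10 below (0.323%, background 0.334%). On simulated levels the region test recovered 0% of 200 regions raised by 10, 20 or 30 points. All came from a narrow band in the lower part of the range between 10 and 80%, and other levels were not simulated. The regions that follow are therefore described, not called.

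The regions with the largest differences among those whose groups did not overlap are given here, and exon or intron was not analysed. After Tbx3, the region of Foxo6 from 120268721 to 120268961 on chromosome 4 was at 2.15% and 7.68% (control) against 35.0% and 18.4% (Cre). It lies 18420 bp from the start in a stretch of short regions that varied between replicates, since the region beside it was at 17.3% and 22.1% against 55.6% and 7.87%. A region of Lhx6, the LIM-homeodomain gene of interneurons from the medial ganglionic eminence, from 36102698 to 36103221 on chromosome 2, was at 3.07% and 5.29% against 19.97% and 16.7%. Another region of Lhx6, from 36093796 to 36094370, went the other way, at 32.7% and 23.8% against 17.4% and 14.1%. In the first part of Foxo3, a stress-response forkhead gene on chromosome 10, 2 adjoining regions were both higher. The control levels at 42274526 to 42274980 were 26.1% and 25.3%, against Cre levels of 33.9% and 46.2%, and those at 42273541 to 42274521 were 34.1% and 36.1% against 49.5% and 41.9%. The region of Foxk1 just inside its start on chromosome 5 (142401550 to 142401686) was at 0.725% and 2.17% against 27.1% and 4.69%, so its difference of 14.4 points came mainly from replicate 1 of the Cre group and was 3.24 points without it. With 1 library left out the difference of the first Foxo6 region ran from 13.5 to 30.1 points, that of the first Foxo3 region from 8.20 to 20.5 points and that of the second Lhx6 region from -17.0 to -8.05 points.

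Downward, the largest region difference was in Pax7, a neural crest and muscle stem cell gene, from 139811330 to 139813479 on chromosome 4, at 68.4% and 65.6% (control) against 51.9% and 50.8% (Cre). Pax7 held regions of both signs: that from 139806446 to 139808049 differed by -10.8 points and that from 139767393 to 139768750 by 13.6 points. A region of Foxk1 from 142456876 to 142457941 had control levels of 63.8% and 79.4% against 52.4% and 59.5%, and 1 of Sox13 on chromosome 1, from 133413690 to 133415452, at 92.0% and 77.8% against 67.6% and 77.0%. With 1 library left out the Foxk1 difference ran from -23.4 to -7.84 points and that of Sox13 from -19.7 to -5.45 points. In Pax3 the region from 78181333 to 78183295 on chromosome 1 was at 60.7% and 53.4% against 44.7% and 46.5%. The groups did not overlap in any of these, and limma gave an adjusted p of 0.937 at all 10 of the largest, 5 in each direction.

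Grouped by the tissue in which they act, no list had a member past the adjusted test. Of 10 genes of forebrain patterning, 2 were higher and 8 lower in gene level, and the list means of the libraries overlapped, at 19.9% and 20.3% in the control and 20.4% and 19.1% in the Cre libraries. Lhx2, which maintains cortical and hippocampal identity, was at 22.7% and 25.8% against 22.5% and 24.3%, and Emx1 at 29.8% and 32.3% against 31.8% and 29.5%. Among genes of the interneuron lineage 5 of 6 measured were higher, with a median difference of 0.260 points. Lhx6 was at 24.5% and 24.3% against 25.8% and 25.9%. Among glial genes 2 of 5 were higher, Sox8 and Sox9. Sox8 was at 17.5% and 17.4% against 20.4% and 18.3%. Among neuronal genes of the adult forebrain 2 of 6 were higher, Foxo3 and Sox4, with a median of -0.197 points. Foxp1 was at 79.6% and 79.3% against 79.3% and 78.8%. Of 6 endothelial and mesenchymal genes 3 were higher, and of 15 measured genes of organs outside the brain 8 were. Foxj1, the gene of ciliated ependyma, was at 35.0% and 35.5% against 36.7% and 33.5%. Over all genes 51.0% were higher, and these shares were not tested against it.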

How the data were processed

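DNA methylation of 4 libraries was analysed, 2 in each group, assigned by title. The submitters' processing notes list mm10, Bismark 0.19.0, Trim Galore 0.4.5, edgeR and FastQC 0.11.5, without their roles. The authors deposited methylation in percent for each region in each library. How regions and any minimum coverage were set is not given in the sources used here; without counts, thinly and deeply covered regions weigh the same. The members and gene lists were chosen with earlier results of these data known.

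Regions without a value in all 4 libraries were left out. Gene levels were plain means over the regions naming a gene, for 25470 pairs of gene name and chromosome. Starts came from a RefSeq table of GRCm38.p6, the assembly of mm10, with strands from the deposited table; sequences came from RefSeq, with a window at the start used for 59 of 125 members. Groups were compared with limma 3.58.1 (R 4.3.3) on logits to base 2 of the level as a share of 1, with an offset of 0.01 added to the level and its complement, with Benjamini-Hochberg adjustment at 0.05 over all features. An exact permutation test of 2 libraries against 2 has 6 arrangements and cannot give p below 0.333, so none is printed. Named were a panel of genes by tissue, the extremes of each family in level and difference, the 5 largest non-overlapping differences in each direction, and partner genes. Tbx3 neighbours, the Six2 region, the 17 promoters, genes by start level or low stretch, neighbouring genes and cell type markers were named after their values were seen. Results of some genes are not reported here. The test was tested on simulated levels with 200 features raised, all from a narrow band in the lower part of the range between 10 and 80%. Alternatives were the percent scale, other offsets, priors, thresholds, windows and weights, a replicate block, a filter on level and each library left out. The difference between replicates 1 and 2 in one group correlated with that in the other at 0.00648 (regions), 0.0502 (genes) and 0.0418 (promoters), so the numbers were not read as pairs.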

Additional observations from a re-analysis of the deposited data

How the results depend on the processing

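The count of 0 members past the threshold held in each setting run, for regions, genes and promoters. Over the whole table, testing the regions with a mean of 10 to 90% alone passed 26 regions (18 higher, 8 lower), none of them a member. A logit offset of 0.001 passed 1 gene, the microRNA gene Mir5133, and 1 promoter, that of Camk2a, passed with a trended and robust prior and 1 with a length-weighted mean, again Camk2a. A replicate block passed 0 regions, 0 genes and 0 promoters, and the unadjusted p was under 0.05 at 4 member genes (2 higher, 2 lower; 3.20% against 5.95% of all genes) and 17 member promoters (13.6% against 5.39% of all). The mean difference over member regions, 0.0509 points, turned sign: it ran from -0.105 to 0.207 points with 1 library left out and was -0.0143 points as a length-weighted mean. Of 648 values of 94 named results under other settings 0 passed. With 1 library left out, the remaining one of its group is taken to vary as the other group does. The sign could not turn for the 10 named promoters and 10 named regions, as they were chosen for groups that do not overlap. It held for 39 of 74 named genes, and it could not turn at those among them without overlap. For the other 35 genes the difference in points ran as follows: -0.815 to 1.89 for Dlx2, -0.425 to 0.887 for Dlx5, -1.66 to 0.859 for Emx1, -1.004 to 0.0923 for Emx2, -0.349 to 0.247 for Foxa2, -0.295 to 1.58 for Foxc1, -0.286 to 0.446 for Foxf2, -1.83 to 1.38 for Foxj1, -0.220 to 0.294 for Foxl2, -1.35 to 0.106 for Foxn1, -1.14 to 0.582 for Foxo1, -1.60 to 0.943 for Foxq1 and -1.74 to 1.84 for Gata1. It ran -0.241 to 0.595 for Gata4, -1.68 to 0.289 for Gata6, -1.97 to 0.971 for Irx5, -1.45 to 0.854 for Irx6, -0.498 to 0.193 for Lhx1, -2.44 to 0.691 for Lhx2, -0.425 to 0.655 for Lhx8, -2.71 to 0.195 for Lhx9, -0.172 to 0.750 for Nkx2-1, -1.18 to 0.295 for Nkx6-2, -0.766 to 0.429 for Pax3 and -1.65 to 0.761 for Pax4. It ran -0.611 to 1.53 for Pax6, -0.230 to 0.368 for Pax8, -0.924 to 0.287 for Pax9, -1.13 to 6.30 for Six2, -2.99 to 0.221 for Six3, -0.350 to 0.842 for Sox17, -0.338 to 0.264 for Sox5, -0.555 to 0.282 for Sox6, -3.43 to 2.13 for Sox7 and -1.35 to 1.36 for Tbx21. A length-weighted mean turned the sign for Dlx5 (-0.441), Foxa2 (0.0892), Foxj1 (0.327), Foxo3 (-0.0704), Foxq1 (0.364), Lhx5 (0.256), Six2 (-0.333), Sox5 (0.0277), Sox9 (-1.38) and Tbx21 (-0.485). The cause was not tested. Leaving out the most different region of a gene was chosen after seeing the data. Depth is unknown, so how far counting error adds to each level cannot be given.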

Other observations

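Genes that work with these factors were measured as well. The 17 cofactors with a level, among them Ldb1, the adaptor of LIM-homeodomain proteins, Eya and Dach family partners and the Tle corepressors, had a median gene level of 77.2%, and no cofactor or Polycomb gene was under 10%. The median over the transcription factors themselves was 26.6%, and these medians were not tested against each other. Of these cofactors 10 were higher and 7 lower in the Cre libraries, 0 passed the adjusted limma test, and 1 (5.88%, against 5.26% of all genes), Tle2, had an unadjusted p under 0.05. Tle2 was at 77.4% and 75.5% (control) against 79.998% and 79.4% (Cre). Ldb1 was at 33.1% and 29.2% against 32.1% and 30.6%. The 18 Polycomb genes had a median of 56.8%, with 11 higher and 7 lower and 0 passing. Ezh2, the histone H3 lysine 27 methyltransferase, was at 61.5% and 61.7% against 61.8% and 61.8%.

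The promoters of markers of the cell types that CA1 tissue could hold were split. Of 27 measured, 14 were higher and 13 lower in the Cre libraries, with a median difference of 0.00121 points, and 0 passed the adjusted limma test. Without Camk2a the list mean was 53.5% and 53.3% in the control and 53.3% and 53.1% in the Cre libraries. The largest difference was at Camk2a, the gene that names the Cre line, with a promoter at 30.5% and 30.4% (control) against 69.7% and 66.6% (Cre). The Cre libraries may also hold the Camk2a promoter of the transgene, and whether its reads are counted at this promoter was not tested. An unadjusted p under 0.05 was found at 3 marker promoters (11.1%, against 5.13% of all promoters), among them Camk2a and Pecam1 of endothelium, which was at 88.7% and 87.1% against 83.3% and 84.0%. The part of the cell mix in the values of the transcription factors was not tested.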
